A study of Mus musculus with 182 samples.

Results

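Single blastomeres of wild-type mouse embryos were compared between the 64-cell stage (64C, blastocysts) and the 32-cell stage (32C). The 46 cells were the wild-type cells of these stages by their labels, of 182 single cells in the study, and all 46 were used. The embryos were hybrids of C57BL/6J and Cast/EiJ from natural matings, never cultured, with the genotype Xist wt/wt. The labels give the strain of BC cells as C57BL/6J*Cast/EiJ and that of CB cells as Cast/EiJ*C57BL/6J. By cross and sex, the 64C cells were 6 BC females, 6 CB females, 6 BC males and 2 CB males, and the 32C cells were 5 BC females, 9 CB females, 6 BC males and 6 CB males. The polyadenylated RNA of single cells was copied into cDNA starting at the 3′ end, amplified and sequenced. The study deposited reads per gene and, for genes with strain differences, the share of reads from the paternal allele. The labels do not name the embryo of a cell, so cells of a group may share an embryo. Reads of the cells with the same stage, cross and sex were therefore summed into 4 sums per stage, and p-values measure the spread between these sums, which may be technical.

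Between these stages the blastocyst cavity grows and the embryo settles its first cell types. Outer cells become trophectoderm, the pumping epithelium that later builds the placenta. Inner cells become either epiblast, the source of the fetus, or primitive endoderm, a secretory epithelium that lays down basement membrane. In female mouse embryos of this age the paternal X chromosome is being silenced under the noncoding RNA Xist, which is made from the X it silences.

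Total counts ran from 5462656 to 12833051 reads per 64C cell (median 7769614) and from 5905208 to 11261748 reads per 32C cell (median 8812045). Reads of 4 Y-linked genes followed the labelled sex. Females held at most 4 such reads, and all males but 1 held at least 223. The exception, the 64C cell BC 24, held 13. No 2 cells of a group were the same library (lowest chi-square per degree of freedom 80.56 over 122 pairs). Marker lists for cumulus, oviduct and blood cells had median summed levels of at most 0.5 CPM (counts-per-million, a gene's reads scaled to the cell's total) per 64C cell and 0.567 CPM per 32C cell. The highest cells held 59.4 CPM of the cumulus list at 64C, nearly all of it Inhbb, and 75.7 CPM of the blood list at 32C, all of it Alas2, while Amh and the listed globin genes had no read at either stage. After thinning to 5462656 reads, 7885 ± 262.7 genes per 64C cell and 8270 ± 656.1 genes per 32C cell had at least 5 reads (SD over n = 4 group medians each; exact two-sided permutation p = 0.343, smallest possible 0.0286). The 64C cell BC 24 was the poorest, with 5341 genes. With the 64C CB females 50 and 52, which held 4.59 and 10.1 CPM of Xist, it forms 3 cells that every count of genes called by a test was also run without. Each such count was also run without 5 cells, leaving out as well the 64C female BC 40, with 5746 genes, and the 32C female CB 2B, with 10.2 CPM of Xist.

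Of 13132 genes that passed the filter on low counts, Dkk1 and Txnip rose (0.0152% of genes tested) and Tnfsf13b fell (0.00761%) at 64C, by edgeR's quasi-likelihood test with Benjamini-Hochberg adjustment at 0.05. Dkk1 encodes a secreted antagonist of Wnt signalling, Txnip an inhibitor of thioredoxin that also limits glucose uptake, and Tnfsf13b the cytokine BAFF. All 3 were still called without the 3 doubted cells. Without the 5 cells Dkk1 and Tnfsf13b were called and Txnip was not (adjusted p = 0.0802). In this design, 21 of 100 simulated 4-fold and 60 of 100 simulated 16-fold changes were recovered, so many genes below the threshold cannot be called unchanged.

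Dkk1 stood at 63.3 CPM in BC females, 35.2 in CB females, 23.1 in BC males and 13.3 in CB males at 64C, against 0.1, 0.115, 0.106 and 0.057 CPM at 32C. Every 64C sum lay far above every 32C sum, with a log2 change of 8.29 ± 0.788 (SE, adjusted p = 0.0328). The RNA was uneven between cells. At 64C, 7 of 20 cells reached 10 CPM, a level used throughout as the mark of an expressing cell, and the highest held 244 CPM. No 32C cell passed 0.359 CPM, and 0 of 26 cells allows a share of up to 11.5%, as 0 of 20 allows up to 15%, both only if cells are independent draws, which the labels do not show. The 7 cells spanned the lineages described below: 2 were trophectoderm-like, 3 inner-like and 2 the cells set apart by primitive endoderm genes.

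Txnip stood at 87.1, 4.11, 2.09 and 0.4 CPM in the 64C sums (BC females, CB females, BC males, CB males), against 0.025 CPM in 32C BC females and 0 in the other 32C sums. The 32C cells together held 1 read of it, against 4664 reads at 64C, a ratio of 6445 with an exact 95% counting interval from 1156 to 254629. The log2 change was 10.83 ± 1.21 (SE, adjusted p = 0.0418), and its size depends on that single read. Expressing cells were 6 of 20 at 64C and 0 of 26 at 32C. Txnip is known for carbohydrate response elements in its promoter, a pair of E-box-like elements spaced by 5 bases. RefSeq's sequence before the gene on build GRCm38.p6, chr3:96557866-96557895, plus strand, holds such a pair, in capitals.
Txnip: actgtgCACGAGGGCTGCACGAGcctccag
The letters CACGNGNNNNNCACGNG, searched on both strands, start 85 bases before the gene and occur in 16 of 32851 RefSeq promoter windows of the same length (0.0487%). The match describes the sequence, and no binding was measured.

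Tnfsf13b was the reverse case, at 0.48, 0.162, 1.15 and 0.114 CPM in the 64C sums against 58.4, 18.8, 73.5 and 20.9 CPM at 32C in the same order. No 64C cell and 20 of 26 32C cells expressed it, and the highest 64C cell held 5.09 CPM. Its log2 change was -6.63 ± 0.69 (SE, adjusted p = 0.0346). Among 32C cells it was more frequent in trophectoderm-like cells, 15 of 16, than in inner-like cells, 5 of 10. The 3 calls rest on the full set of sums. Each was lost, with adjusted p up to 0.352 for Dkk1 and 0.409 for Txnip and Tnfsf13b, when any sum other than the 64C male sums was left out. With all wild-type sums of the study in 1 fit Dkk1 and Txnip lost their calls, with stage as the only term Txnip and Tnfsf13b did, and limma on cell means called none of the 3.

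The genes next in rank did not pass. The stages' sums did not overlap for any of the 24 named genes, which were picked by p and direction in these same sums. Their lack of overlap therefore adds no support, and the share of all genes without overlap is not given here. A looser mark is the direction in the 4 pairs of sums of the same cross and sex. By it, 1138 of 13132 genes were higher in 4 of 4 pairs (8.67%) and 1500 were lower (11.4%). Glrx, the glutathione-dependent oxidoreductase glutaredoxin, stood at 310, 571, 360 and 625 CPM at 64C and 33.5, 151, 25.1 and 103 CPM at 32C (adjusted p = 0.0699), and was called without the 3 doubted cells (adjusted p = 0.0376) but not without the 5 (adjusted p = 0.0505). AA467197, related to the respiratory complex IV subunit Ndufa4, stood at 737, 691, 412 and 463 against 198, 208, 67.7 and 75.3 CPM. These genes were present at both stages, with 19 of 20 and 20 of 20 expressing cells at 64C and 23 of 26 and 26 of 26 at 32C.

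A second kind of gene among them was close to silent at 32C. Entpd1, an ectonucleotidase that breaks down extracellular ATP, had 47.3, 29.6, 9.51 and 0.229 CPM in the 64C sums and at most 0.025 CPM in a 32C sum. Its 7 expressing cells at 64C were 5 trophectoderm-like cells and the 2 set apart, against no cell at 32C. Its summed ratio of 1975 has a counting interval from 675 to 9580, on 3 reads at 32C. 5730559C18Rik behaved likewise, with 8 of 20 expressing cells against 0 of 26.

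The other genes higher at 64C without passing were Capg, which caps actin filaments (134, 69, 168 and 53.9 against 21.5, 9.92, 8.68 and 6.63 CPM), the calcium-binding Sri, Gm20362, the dynein light chain Dynll1, the complex I subunit Ndufb9 and Atp5g3, the ring subunit of ATP synthase. Their log2 changes ran from 1.72 for Dynll1 to 3.23 for Capg. Atp5g3 stood at 943, 1046, 938 and 1466 CPM at 64C and at 323, 258, 393 and 131 CPM at 32C.

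Lower at 64C without passing were enzymes, autophagy factors and a meiotic cohesin subunit. Pemt, which makes phosphatidylcholine, stood at 62.8, 40, 285 and 24.1 CPM at 64C and 1039, 1122, 1271 and 324 CPM at 32C (log2 change -3.55, adjusted p = 0.22). Atg9a, the transmembrane protein of autophagosome formation, had 15.1, 22.2, 58.6 and 19.9 against 141, 81.2, 241 and 135 CPM, and the Atg8 protease Atg4b 140, 259, 225 and 350 against 462, 584, 587 and 965 CPM. Stag3, a cohesin subunit of meiosis, was at 4.12, 3.1, 4.19 and 2.29 CPM against 46.3, 30.7, 35.8 and 16.1 CPM. The small GTPase Rnd1 had 0.78, 3.48, 4.71 and 22.8 against 29.2, 31.1, 30.4 and 132 CPM. Pdxk (pyridoxal kinase), Lgals9 (a galectin), Slc43a3, Parp8, Stip1 (a co-chaperone of Hsp70 and Hsp90) and Ivns1abp complete the 11, with log2 changes from -2.43 for Lgals9 to -1.4 for Ivns1abp. In all 11 the highest 64C sum lay below the lowest 32C sum, which their choice by p and direction favours. DESeq2 called all 24 named genes, among 885 calls.

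**Figure D1:**
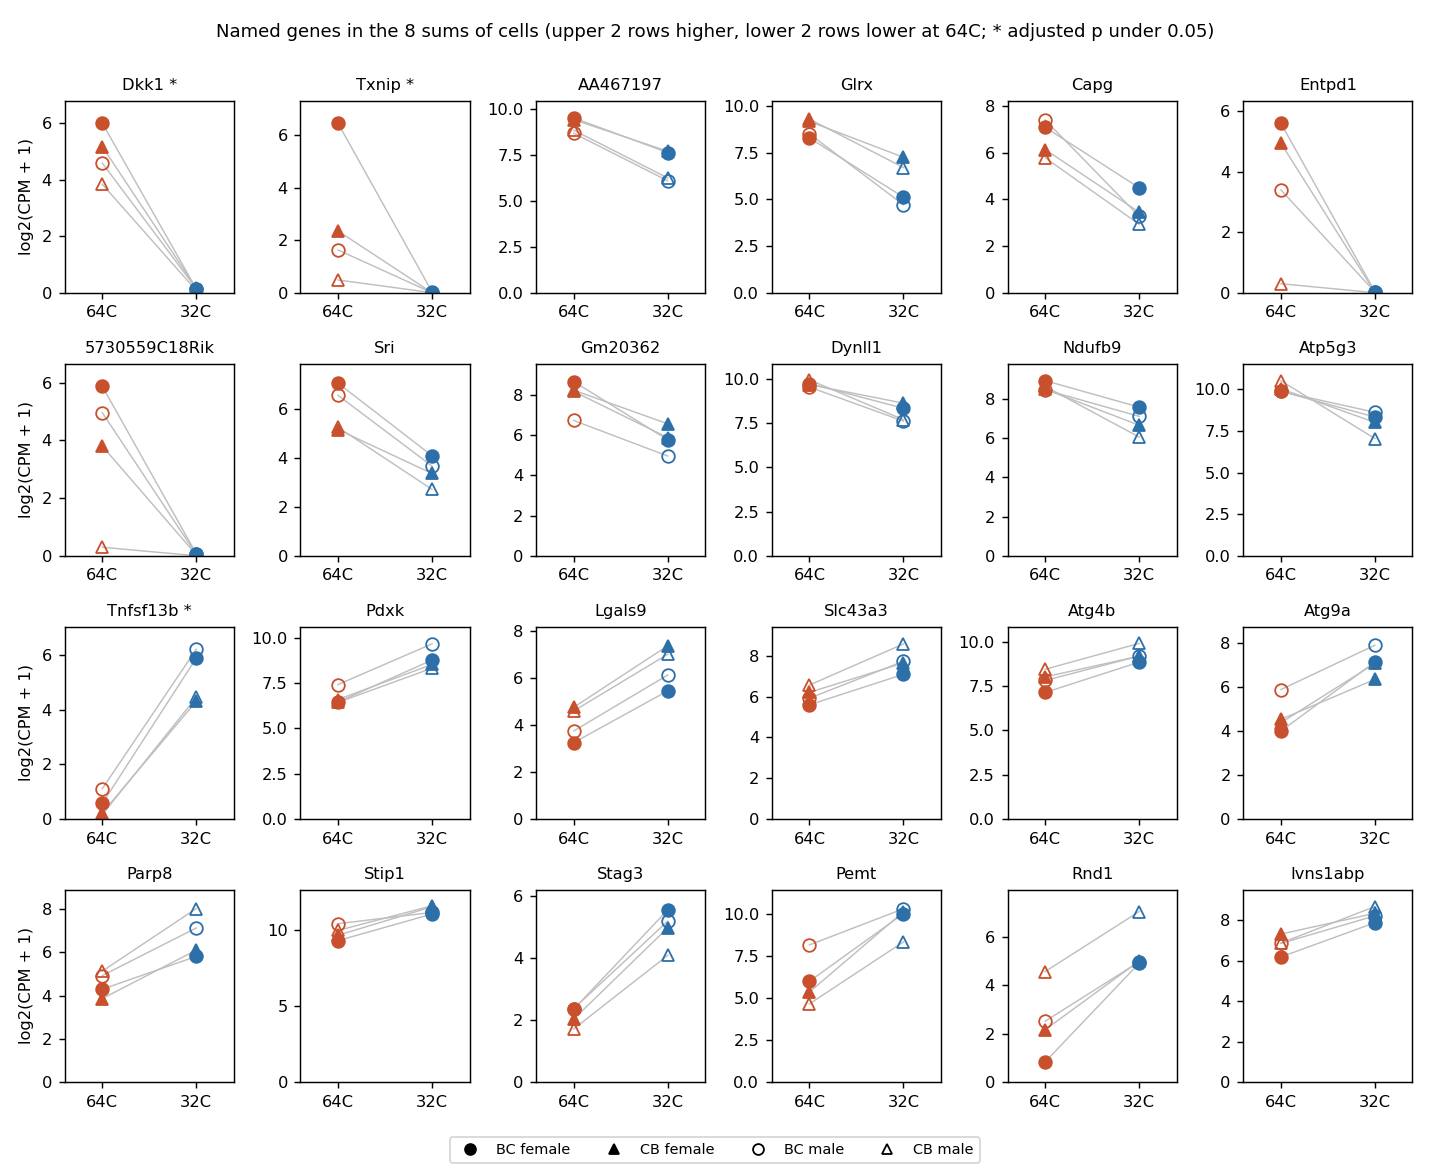
Levels of the 24 named genes, log2(CPM + 1), in the 4 sums of cells at 64C (left) and 32C (right); grey lines join sums of the same cross and sex, filled symbols are females and open symbols males. The genes were picked by p and direction in these sums, and the stages do not overlap in any panel. The 3 genes with an asterisk had an adjusted p under 0.05.

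A summed level cannot tell fewer expressing cells from less RNA per cell, so the share of cells with at least 10 CPM was tested as well (limma on the logit of the shares, weighted by cells). A drop of RNA per cell across that mark also lowers the share, so the test does not fully tell them apart. Of 8637 genes tested, 39 fell in the share of expressing cells at 64C (0.452%) and 1 rose (0.0116%). The split between falls and rises depends on the mark and the fit, with 20 falls and 17 rises at 100 CPM, 55 and 14 at 1 CPM, and 104 and 17 with the 4 pairs of cross and sex as a block. Of these 40, 35 also differed the same way in summed level in 4 of 4 pairs. Without the 3 doubted cells 25 genes were called, 24 of them among the 40, and without the 5 cells 25 genes, 22 of them among the 40. None of the 40 was called under every left-out sum. On simulated shares of 0.95 against 0.05 the test recovered 200 of 200 changed genes, with 11 false calls among 9438 genes, and on shares of 0.75 against 0.25 it recovered 100 of 200, with 7 false calls among 9372 genes.

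The gene that rose was Wfdc2, a small secreted protein with whey acidic protein domains. It was expressed in 11 of 20 cells at 64C and 0 of 26 at 32C, with averages over the 4 groups of 54.2% and 0% (adjusted p = 0.0448). It was not called without the 3 doubted cells (adjusted p = 0.0853) or the 5 (adjusted p = 0.0902). Its expressing cells were 6 of 11 trophectoderm-like, 3 of 7 inner-like and both cells set apart. In the sums it stood at 72.77, 15.5, 8.857 and 7.601 CPM at 64C against 1.879, 1.719, 1.969 and 0.456 CPM at 32C.

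The 39 that fell were expressed in 14 to 26 of 26 cells at 32C and in 0 to 11 of 20 cells at 64C. Tnfsf13b had the lowest p, with averages of 0% at 64C and 77.8% at 32C (adjusted p = 0.00725). Gm10778 had the largest loss in share, with 2 of 20 cells at 64C and 23 of 26 at 32C (8.33% and 86.7% over the groups, adjusted p = 0.0171). Its medians of 2.63 and 19.2 CPM lie on either side of the mark, and it was not tested with 1 CPM as the mark. Naalad2, a membrane peptidase, was expressed in 6 of 20 cells against 25 of 26, with medians of 0.648 and 97.5 CPM.

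Acsl4, an X-linked enzyme that activates arachidonic acid, was expressed in 4 of 20 cells at 64C, all inner-like CB females, and in 23 of 26 cells at 32C, in both lineage classes (15 of 16 trophectoderm-like, 8 of 10 inner-like). None of the 11 trophectoderm-like 64C cells passed 2.93 CPM. Kng1, a kininogen, was expressed in 2 of 20 against 22 of 26 cells, Osbpl6, an oxysterol-binding protein, in 4 against 21, Wdr81, a protein of endosome maturation, in 4 against 22, and Tktl1, a transketolase-like enzyme of the X chromosome, in 1 against 18. Tmem229b closes the leading 10, with 2 against 20. Naalad2 and Acsl4, the only genes of the leading 10 tested with 100 CPM as the mark, were not called there. Not called either were Wdr81 and Tmem229b with 1 CPM, Tktl1 without the 3 doubted cells or the 5, and Wdr81 without the 5.

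Others of the 39 were chosen after their values were seen. Aurkc, the meiotic Aurora kinase, was expressed in 3 of 20 cells at 64C and 20 of 26 at 32C (adjusted p = 0.0226). Its summed level did not pass (log2 change -0.71, adjusted p = 0.904). A single BC female at 64C held 375.7 CPM, and that sum stood at 97.9 CPM, against 62.8 CPM at 32C. The homeobox gene Obox6, active from the earliest cleavages, was expressed in 3 against 21 cells (adjusted p = 0.0274), and Nr6a1, the germ cell nuclear factor, in 7 against 26 (adjusted p = 0.0171). Dcp1a, which takes part in removing the mRNA cap, was expressed in 8 against 26 cells and the kinetochore protein Dsn1 in 8 against 26 (adjusted p = 0.0171 for each). Rb1cc1, a starter of autophagosome formation, fell to 10 of 20 cells at 64C, against 26 of 26 at 32C (adjusted p = 0.0489), Bid, a proapoptotic BH3 protein, to 7 against 23 (adjusted p = 0.035), and Msmo1, a sterol demethylase, to 7 against 25 (adjusted p = 0.0263). Kank3 and Tmem92 were expressed in no 64C cell, against 14 and 15 of 26 cells at 32C. Of the genes in these sentences, Aurkc, Nr6a1, Dcp1a and Dsn1 were also called without the 3 and without the 5 cells, and Obox6, Rb1cc1, Bid, Msmo1, Kank3 and Tmem92 were called in neither.

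Among the 10 genes with the largest gain in share, none passed. Snd1, a nuclease-domain protein, averaged 70.8% at 64C and 12.8% at 32C (adjusted p = 0.0967), and Lama1, the laminin chain of early basement membranes, 62.5% and 6.94% (adjusted p = 0.0936). Lama1 was called without the 3 doubted cells (adjusted p = 0.0365) and without the 5 (adjusted p = 0.0362). Cenpw, a kinetochore protein, averaged 91.7% and 37.2%, and Tmem126a, an assembly factor of complex I, 91.7% and 36.4%. The other 6 were 1190007I07Rik, Bri3, Tmem256, Mtfmt (the methionyl-tRNA formyltransferase of mitochondria), Pskh1 and Sac3d1. These gains rest on the mark. With 1 CPM in place of 10 CPM the logit difference was 0.203 in place of 2.389 for Cenpw, 0.735 in place of 2.091 for Tmem126a, 0.693 in place of 2.268 for Bri3 and -0.056 in place of 2.139 for Mtfmt. With the pairs as a block, Snd1, Lama1, Cenpw, 1190007I07Rik, Bri3 and Pskh1 were called.

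**Figure D2:**
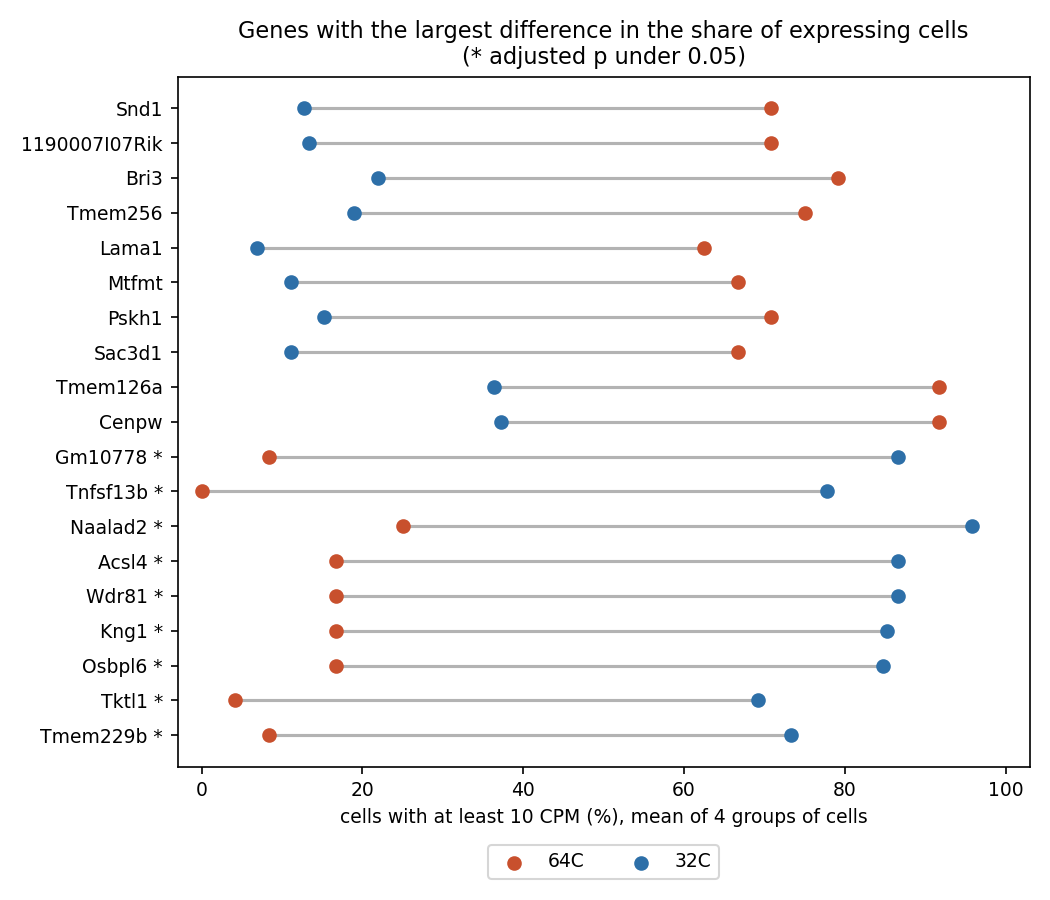
Share of cells with at least 10 CPM (x axis, percent, mean of 4 groups of cells) at 64C and 32C for the 10 genes with the largest gain and 9 of the 10 with the largest loss. Asterisks mark an adjusted p under 0.05; Tnfsf13b lies at 0% at 64C and 77.8% at 32C.

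To describe the cells by lineage, each was given the mean log2(CPM + 1) of lists of marker genes. The trophectoderm level less the pluripotency level left its widest gap between -2.37 and -0.96, with 29 cells above and 17 below. No cell lay inside this gap of 1.41, and the next widest was 0.541. Cells below are called inner-like. Of those above, 27 are called trophectoderm-like, and the 64C cells BC 35 and BC 75, whose primitive endoderm level exceeded their level of trophectoderm transcription factors, are set apart without a name. This rule was applied only above the gap. Most inner-like cells of both stages met it too, as did the 64C cell CB 56 (4.93 against 2.53). The classes rest on these genes, so their marker levels describe the cells and support nothing.

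At 64C, 11 cells were trophectoderm-like, 7 inner-like and 2 set apart, and at 32C 16 were trophectoderm-like and 10 inner-like. The classes were spread unevenly. All 6 BC males at 64C were trophectoderm-like, both CB males were inner-like, BC females held 3, 1 and the 2 set apart, and CB females held 2 trophectoderm-like and 4 inner-like cells. At 32C the trophectoderm-like cells were 3 of 5 BC females, 7 of 9 CB females, 4 of 6 BC males and 2 of 6 CB males. The part of this makeup in the sums of lineage genes was not tested.

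By medians of lists that set them, the 2 classes lay further apart at 64C than at 32C. The 2 cells set apart at 64C, with pluripotency levels of 5.41 and 5.63, are left out of both classes. The median level of the pluripotency list was 3.69 in trophectoderm-like and 6.6 in inner-like 64C cells, against 4.77 and 6.25 in 32C cells (log2(CPM + 1), n = 11, 7, 16 and 10 cells). The trophectoderm epithelium list had medians of 7.21 and 3.59 at 64C, against 5.91 and 3.94 at 32C. The primitive endoderm list reached 6.65 and 5.86 in the 2 cells set apart and had a median of 3.99 in inner-like cells at 64C, against 2.88 in inner-like cells at 32C. These spreads over cells carry no test.

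**Figure D3:**
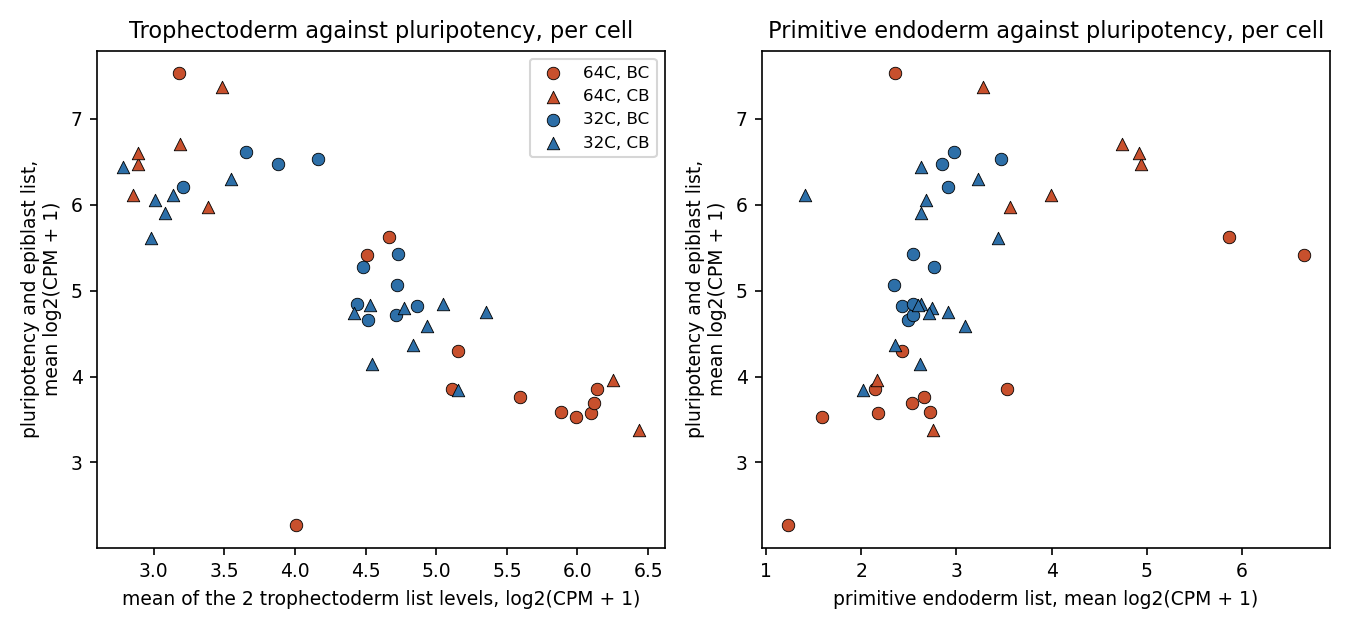
Each point is a cell at 64C or 32C, placed by the mean log2(CPM + 1) of marker lists: trophectoderm (left, x axis) or primitive endoderm (right, x axis) against pluripotency and epiblast (y axes). The 64C cells reach further into both corners of the left panel than the 32C cells, and BC 35 and BC 75 lie alone at the right of the right panel, at 6.65 and 5.86.

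Trophectoderm transcription factors, which also set the classes, ranged widely. None of the 16 tested passed, 6 were higher in 4 of 4 pairs and 7 were higher with an unadjusted p under 0.05 (6.27% of all genes were higher and 5.19% lower by that mark). In 4 of 4 pairs, 8.67% of all genes were higher and 11.4% lower, the background for this and each later list. The median log2 change of the list was 1.52, against -0.0308 over all genes. Gata2, which drives trophoblast genes, stood at 109, 49.9, 61.2 and 0.914 CPM at 64C, against 0.15, 0.484, 0.0887 and 0 CPM at 32C (log2 change 8.02, adjusted p = 0.18). It was expressed in 9 of 20 cells, 8 of them trophectoderm-like, and in no 32C cell. Eomes, a T-box factor of trophoblast stem cells, had 320, 357, 156 and 52.6 against 15.7, 60.3, 44.1 and 41.3 CPM. Its trophectoderm-like medians were 328 and 30.2 CPM.

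Other factors of the list are active from earlier stages. Cdx2, which represses inner cell genes in outer cells, stood at 38.3, 16.5, 36.1 and 0.114 against 34.1, 36.3, 36.9 and 42.8 CPM, with trophectoderm-like medians of 46.9 and 49.3 CPM. Gata3 had trophectoderm-like medians of 287 and 247 CPM, and Tead4, the DNA-binding partner of Yap, sums of 19.7 to 99.2 against 91.7 to 121 CPM. Tfap2a and Msx2 were expressed in 6 and 8 of 20 cells at 64C and in no 32C cell. Klf5, needed for trophectoderm growth, stood at 244, 118, 142 and 156 against 136, 9.68, 101 and 17 CPM. Elf5, a factor of trophoblast stem cells, had no read in the 26 32C cells and 1283 reads at 64C, at least 591-fold higher (floor of 3 reads over the stage) and 2 cells expressed it.

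Keratins and other epithelial genes were among those that set the classes, so their levels by class only describe the cells. Krt8 and Krt18, the simple-epithelium keratin pair, had trophectoderm-like medians of 4096 and 3875 CPM at 64C, against 612 and 531 CPM at 32C, and inner-like medians of 75.3 and 16.3 CPM against 86.2 and 15.5 CPM. The tetraspanin Tspan8 had trophectoderm-like medians of 1160 and 38.6 CPM. In the sums, Krt18 stood at 4129, 991, 4530 and 62 CPM at 64C, against 504, 566, 397 and 84.1 CPM at 32C. The low 64C value is that of the CB males, the sum without a trophectoderm-like cell. None of the 24 epithelial genes passed, 2 were higher in 4 of 4 pairs (the junction protein Jup and the membrane linker Ezr), and the median log2 change was 0.304. The 2 of 24 lie near the 8.67% of all genes.

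Of 12 pumps and channels of cavity filling, none passed and 3 were higher in 4 of 4 pairs, among them the sodium pump subunit Atp1b3 and the water channel Aqp8. Aqp8 stood at 236, 315, 16.2 and 137 against 22.2, 0.14, 0.213 and 13.6 CPM. It was expressed in all 7 inner-like 64C cells, with a median of 173 CPM, and in 3 of 10 inner-like 32C cells, with a median of 0.0683 CPM. Aqp9 was expressed in 10 of 20 against 25 of 26 cells (adjusted p = 0.094).

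Of the primitive endoderm genes, none of the 22 tested passed, 9 had an unadjusted p under 0.05, all higher, 5 were higher in 4 of 4 pairs, and the median log2 change was 1.25. Gata6, the factor at the top of this lineage, was present at both stages, in 17 of 20 and 26 of 26 cells, with sums of 201, 330, 232 and 211 against 185, 256, 266 and 588 CPM. Gata4, which acts below it, was expressed in 11 of 20 cells and 4 of 26, with inner-like medians of 79.9 and 0.154 CPM. Sox17, later in the lineage, was expressed in 7 of 20 cells and in none of 26, and the 32C cells held 7 reads of it in all, against 4752 at 64C.

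Members of the same list that act in the basement membrane or the matrix follow. That list also served to set the 2 cells apart. Lama1 stood at 683, 38.5, 5.7 and 275 CPM at 64C and at 0.0751, 1.36, 2.57 and 5.62 CPM at 32C, and the 2 cells set apart held 766 and 2470 CPM. Serpinh1, a collagen chaperone, stood at 237, 160, 0.502 and 381 against 0.526, 8.72, 0.142 and 2.22 CPM (log2 change 7.18, adjusted p = 0.22). Sparc, a collagen-binding matrix protein, had inner-like medians of 150 and 7.11 CPM and reached 1148 and 1826 CPM in the cells set apart. The low 64C value of each belongs to the BC males, whose 6 cells were all trophectoderm-like. Dab2, an endocytic adaptor shared with trophectoderm, had trophectoderm-like medians of 537 and 794 CPM and inner-like medians of 12.4 and 41.8 CPM.

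Pluripotency genes, which also set the classes, had sums on either side of the 32C level, with wider differences between classes. Of 21 tested none passed, 1 was higher and 1 lower in 4 of 4 pairs, and the median log2 change was 0.112. Nanog, the homeobox factor of epiblast, stood at 167, 121, 154 and 699 against 128, 439, 140 and 552 CPM, with trophectoderm-like medians of 28.4 and 162 CPM and inner-like medians of 209 and 299 CPM. Sox2, an early marker of inner cells, was expressed in all 7 inner-like cells at 64C and 9 of 10 at 32C, with medians of 132 and 70.4 CPM, and in 1 of 11 trophectoderm-like cells against 4 of 16. Tdgf1, the Nodal co-receptor Cripto, had inner-like medians of 509 and 230 CPM and trophectoderm-like medians of 1.23 and 6 CPM.

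Bmp4, a growth factor of the inner cell mass, was the pluripotency list's gene higher in 4 of 4 pairs, at 41.2, 91.3, 0.23 and 37.1 against 0.376, 0.0382, 0.0177 and 0.057 CPM (adjusted p = 0.22). It was expressed in 6 of 7 inner-like 64C cells and in no 32C cell. Fbxo15, a target of Oct4, was lower in each pair, at 1276, 950, 1139 and 1162 against 2832, 2028, 2482 and 3898 CPM. Oct4 itself, Pou5f1, stood at 286, 365, 318 and 611 against 505, 410, 509 and 344 CPM.

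Expression of factors of 2 lineages in the same cell was counted for pairs of genes. Cdx2 and Nanog were both expressed in 9 of 20 cells at 64C and 19 of 26 at 32C, Gata3 and Sox2 in 2 of 20 and 8 of 26, and Nanog and Gata6 in 16 of 20 and 26 of 26. Krt8 and Sox2 were both expressed in 9 of 20 and 13 of 26 cells, but every cell expressed Krt8, so this is the count of Sox2. Nanog and Gata4 were both expressed in 11 of 20 and 4 of 26 cells, and Sox17 and Nanog in 7 of 20 and 0 of 26. No cell with Gata4 or Sox17 lacked Nanog, so these are the counts of Gata4 and Sox17. These counts over cells were not tested.

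Fibroblast growth factor signalling, which sets primitive endoderm against epiblast through ERK, was mixed. Of 17 genes none passed, 3 were higher and 2 lower in 4 of 4 pairs, with a median log2 change of 0.205. The receptor Fgfr1 stood at 88.1, 164, 62.6 and 170 against 43.5, 32, 26 and 75.7 CPM. Dusp6 and Etv4, feedback and target genes of ERK, were expressed in 7 and 3 of 20 cells at 64C and in no 32C cell, and 6 of the 7 cells with Dusp6 were trophectoderm-like. The ligand Fgf4 was expressed in 2 of 20 and 4 of 26 cells. Of 19 Hippo pathway genes 1 was higher in 4 of 4 pairs, the DNA-binding factor Tead2, at 68, 21.2, 171 and 15.5 against 16.8, 10, 24.8 and 12.1 CPM. Mob1a was lower in 4 of 4, at no more than 1.14 CPM in any sum. Neither Hippo count exceeds the share over all genes, 8.67% higher and 11.4% lower.

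None of the 39 nuclear-encoded subunits of oxidative phosphorylation passed, 24 were higher and 0 lower in 4 of 4 pairs, 20 had an unadjusted p under 0.05, all higher, and the median log2 change was 0.908. An example from each complex follows. Ndufb9 of complex I had 484, 357, 350 and 395 against 190, 99.6, 136 and 65.2 CPM. Sdhb of complex II had 321, 285, 333 and 316 against 130, 219, 168 and 189 CPM. Uqcrq of complex III had 90.8, 154, 104 and 154 against 85, 32.6, 25.6 and 11.9 CPM. Cox6c of complex IV had 232, 259, 210 and 278 against 98.7, 194, 40.3 and 24.8 CPM. Atp5h of ATP synthase had 528, 494, 519 and 408 against 327, 294, 172 and 115 CPM. The catalytic Atp5b was higher in 2 pairs and lower in 2, at 2369, 2430, 1727 and 2120 against 2488, 1511, 2911 and 1074 CPM. The list's median log2(CPM + 1) difference was above 0 in each pair, from 0.596 in BC females to 1.58 in CB males.

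Glycolysis was mixed. Of 20 genes none passed, 2 were higher and 1 lower in 4 of 4 pairs, and the median log2 change was 0.217. Gapdh stood at 2257, 2076, 1977 and 1442 against 1031, 996, 594 and 815 CPM (adjusted p = 0.2), and Pkm, the last enzyme of the pathway, at 504, 667, 305 and 920 against 335, 214, 203 and 407 CPM. The lactate dehydrogenase subunit Ldhb, typical of oocytes and early cleavage, stood at 0.14, 0.162, 6.97 and 5.77 against 4.63, 8.25, 29.1 and 15.9 CPM. The glucose transporter Slc2a3 had trophectoderm-like medians of 454 and 269 CPM and inner-like medians of 11 and 93.3 CPM, and Slc2a1 inner-like medians of 116 and 36.4 CPM.

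Of 26 lysosome genes none passed, 0 were higher and 11 lower in 4 of 4 pairs, 8 were lower with an unadjusted p under 0.05, and the median log2 change was -0.888. The proteases Ctsa and Ctsc stood at 520, 223, 409 and 323 against 1134, 523, 1191 and 430 CPM and at 97.3, 99.2, 68.4 and 80.9 against 173, 180, 270 and 195 CPM. Grn, progranulin, stood at 91.8, 132, 349 and 171 against 615, 311, 927 and 255 CPM. Ctsb, Hexa and Asah1 were among those without this direction.

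Of 16 apoptosis and autophagy genes none passed in level and 6 were lower in 4 of 4 pairs. These were the survival factor Mcl1, Bid, the caspase inhibitor Xiap, the autophagy enzyme Atg7 and the autophagosome proteins Map1lc3a and Map1lc3b. Atg7 stood at 71.9, 23, 45.8 and 12.1 against 130, 72, 157 and 103 CPM. Of 23 cholesterol synthesis genes 1 was higher and 3 lower in 4 of 4 pairs, with a median log2 change of -0.309. They were the kinase Mvk, and Idi1, Fdps and Msmo1. Over all genes 8.67% were higher and 11.4% lower, so these counts lie near or under the background. Msmo1, the list's member that fell in share, stood at 6.04, 10.2, 22.8 and 8.86 against 47.3, 57.1, 58.9 and 52.9 CPM.

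Genes of the oocyte and of early cleavage had lists with negative medians. Of 18 oocyte genes tested none passed, 4 were lower in 4 of 4 pairs (Zp3, Tle6, Nlrp14 and Fbxw15) and the median log2 change was -2.66, mostly at levels under 10 CPM. On the log2(CPM + 1) scale the list's median difference was only -0.38 in BC females, -0.0568 in CB females, -1.12 in BC males and -0.0655 in CB males. Zp3, a coat protein of the egg, stood at 0.56, 0.932, 0.0209 and 0 against 14.8, 1.32, 5.89 and 3.69 CPM. Of 13 genes of cleavage-stage activation 5 were lower in 4 of 4 pairs and the median log2 change was -1.93, with median differences of -0.575, -1.78, -0.37 and -0.794 on the log2(CPM + 1) scale. Alppl2, an alkaline phosphatase, stood at 104, 175, 531 and 2.57 against 2175, 742, 4154 and 932 CPM, and Obox6 at 3.12, 0.668, 1.78 and 37.4 against 46.6, 53.5, 77.3 and 65.5 CPM. The stages overlapped for Pramel6, at 649, 460, 778 and 659 against 762, 1076, 749 and 642 CPM.

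**Figure D4:**
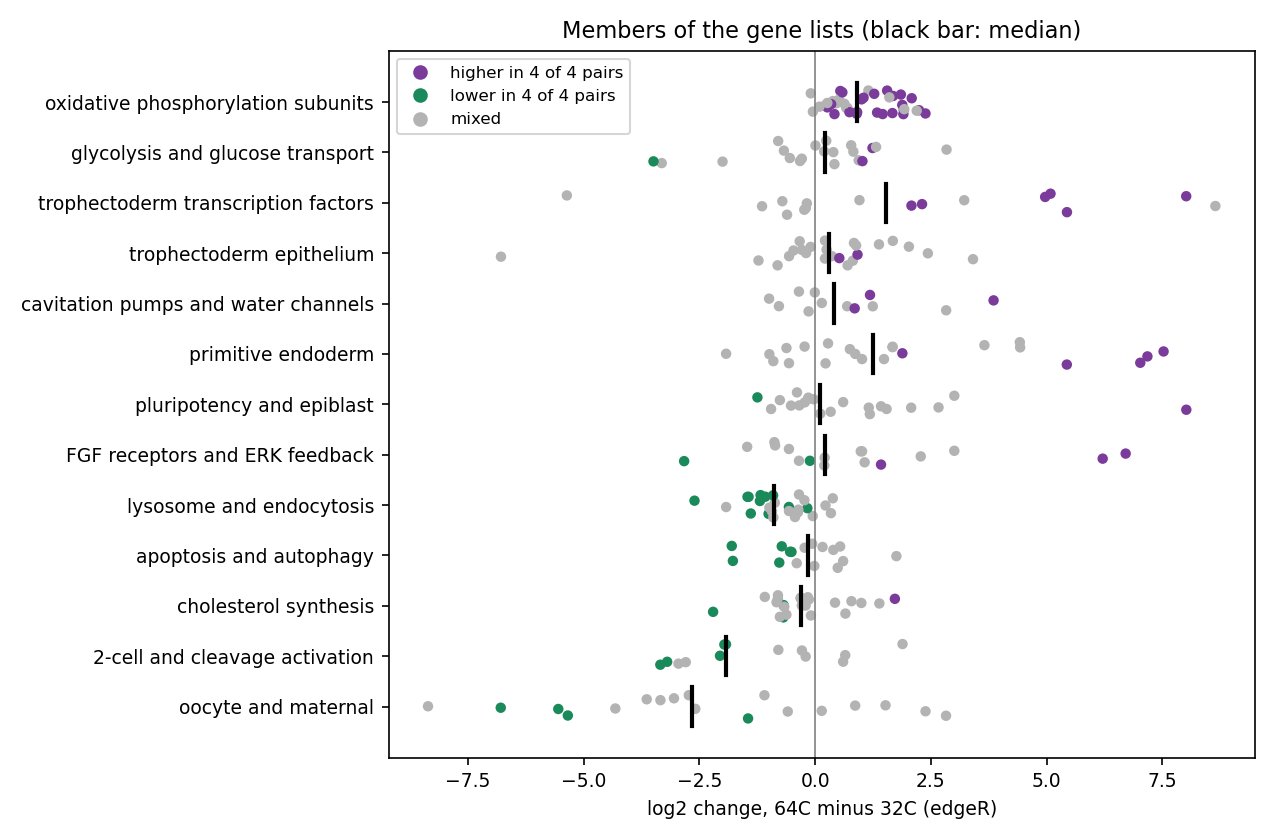
Log2 change from edgeR (x axis, 64C minus 32C) of each tested member of 13 gene lists, with black bars at the list medians; points are purple where all 4 pairs of sums were higher at 64C, green where all 4 were lower, and grey otherwise. Oxidative phosphorylation subunits (median 0.908) and lysosome genes (median -0.888) lie on opposite sides of 0, and single lineage factors reach beyond 7.

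The remaining lists had these medians, against -0.0308 over all genes. Their counts in 4 of 4 pairs stand beside 8.67% higher and 11.4% lower over all genes. Cell cycle genes had a median log2 change of 0.114, with 2 of 25 higher and 2 lower in 4 of 4 pairs. Ccne1, cyclin E1, was among the lower, at 19.2, 40, 127 and 34.3 against 156, 227, 195 and 139 CPM. Stress and p53 target genes had a median of 0.213 (2 of 19 higher, 1 lower), with pair medians below 0 in BC and above 0 in CB, DNA methylation genes 0.481 (0 of 12 higher, 1 lower) and polycomb genes -0.1 (2 of 22 higher, 4 lower). Hspa5, the chaperone BiP, stood at 611, 299, 569 and 285 against 1005, 1049, 648 and 576 CPM. Dppa3, the maternal factor Stella that shields methylation, stood at 1529, 2470, 2416 and 3265 against 3829, 4322, 3315 and 4164 CPM.

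Whether the stages differed between females and males was tested with a stage by sex term. It called 0 of 13132 genes (0%), with 496 genes at an unadjusted p under 0.05 and 151 calls by DESeq2. X-linked genes as a whole were set against autosomal genes in each pair. Their median log2(CPM + 1) difference, 64C minus 32C, was lower than the autosomal one by 0.195 in BC females, 0.292 in CB females, 0.125 in BC males and 0.262 in CB males (210 X-linked and 7117 autosomal genes). Males, which have no paternal X, showed the gap as well. No gene of 3 X-linked lists passed in level. The X-inactivation centre had a median log2 change of -0.164, with 0 of 11 genes higher and 0 lower in 4 of 4 pairs. Known escape genes had -0.273, with 1 of 9 higher (Mid1) and 2 lower (Kdm6a and Ddx3x), and X-linked housekeeping genes -0.146, with 3 of 35 higher and 8 lower. Among genes above a mean of 100 CPM it was 0.116 and 0.0118 in BC females and BC males, with X-linked genes higher, and -0.386 and -0.49 in CB females and CB males.

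The mean paternal share over X-linked genes was smaller in 64C females. Paternal shares of X-linked genes were averaged per cell, keeping a gene where its total count in that cell reached 10. The number of allelic reads behind a share is not given, so no cut was set on it. The mean share ran from 0.0639 to 0.295 in the 12 64C females (median 0.159). In the 14 32C females it ran from 0.21 to 0.396 (median 0.321). In CB females the stages did not overlap, at 0.106 to 0.187 against 0.305 to 0.396. In BC females they did, at 0.0639 to 0.295 against 0.21 to 0.349. The difference of medians was -0.0863 in BC and -0.187 in CB, and the group medians averaged 0.168 at 64C and 0.305 at 32C (exact two-sided permutation p = 0.333, the smallest that 2 groups a stage allow). Males, which have no paternal X, gave medians of 0.00741 at 64C and 0.00243 at 32C, the background of the allele calls. The autosomal share was 0.51 and 0.514 in the same females.

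By class, crosses pooled, the medians were as follows. Trophectoderm-like females had medians of 0.146 at 64C and 0.321 at 32C (n = 5 and 10 cells), and inner-like females 0.172 and 0.314 (n = 5 and 4). The 2 female cells set apart had 0.142 and 0.213. Xist itself was read from the paternal allele, with a median share of 0.996 at 64C and 0.998 at 32C. Its level had a median of 803 CPM in BC and 44.3 CPM in CB females at 64C, against 129 and 98.5 CPM at 32C. The classes differed in cross, as 4 of the 5 inner-like 64C females were CB, so both measures are also given within crosses. In CB the paternal X shares ran from 0.146 to 0.181 in trophectoderm-like and 0.106 to 0.187 in inner-like 64C females, against 0.305 to 0.396 and 0.365 to 0.39 at 32C. In BC they overlapped in trophectoderm-like females, at 0.0639 to 0.295 against 0.235 to 0.349. The 0.295 was that of the doubted cell BC 40, on 45 X-linked genes. BC 19 and BC 36 had 0.0639 and 0.13, below the 32C range. The single inner-like 64C female in BC had 0.233, against 0.21 and 0.263 at 32C. In BC, trophectoderm-like females held 764 to 1847 CPM at 64C (n = 3) and 89.7 to 559 CPM at 32C (n = 3), and the single inner-like 64C female held 379 CPM, against 124 and 448 CPM in the 2 at 32C. In CB, the 2 trophectoderm-like 64C females held 4.59 and 533 CPM, against 10.2 to 301 CPM in the 7 at 32C, and inner-like females 10.1 to 74.9 CPM (n = 4) against 95.8 and 98.5 CPM (n = 2).

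**Figure D5:**
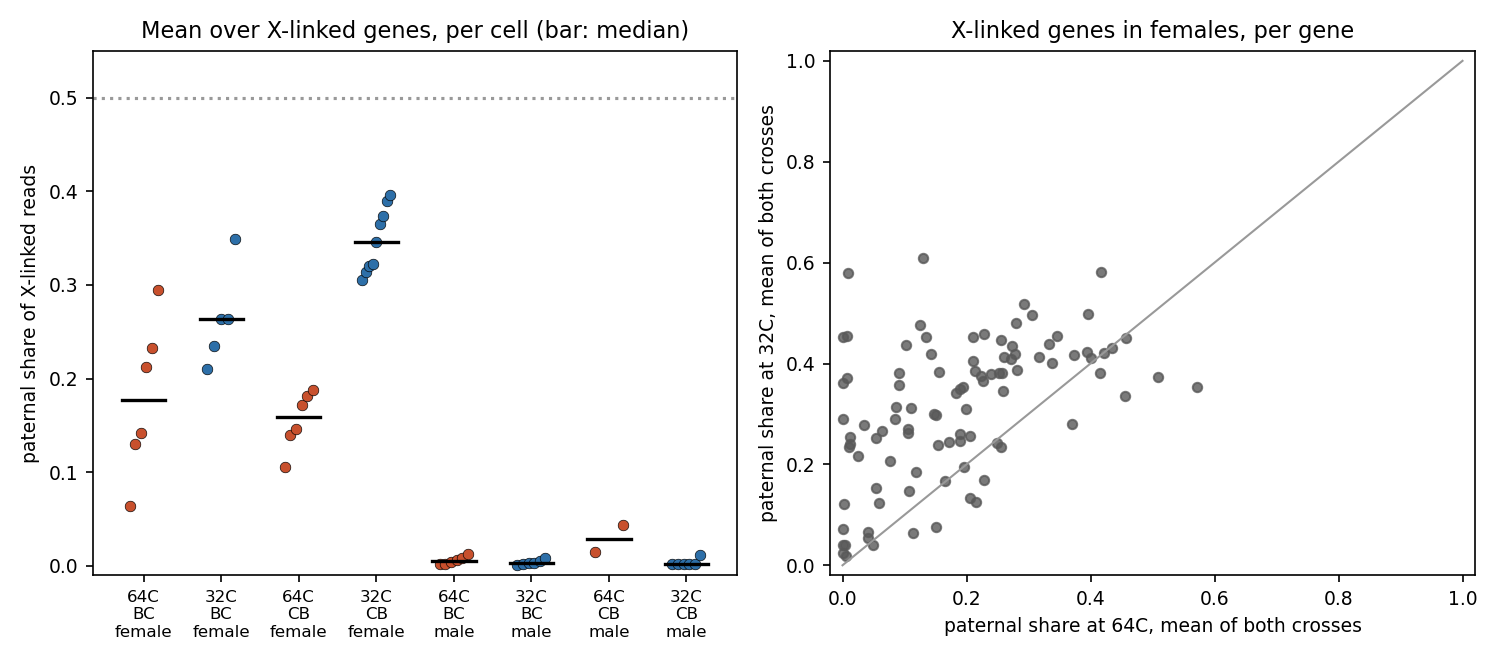
Left, the paternal share per cell (y axis, fraction), an unweighted mean over X-linked genes, at 64C and 32C in each cross and sex. Bars are at the medians and the dotted line is at equal alleles. Right, the share of each X-linked gene in females, averaged over both crosses, at 64C (x axis) and 32C (y axis), where most points lie above the line of equal shares.

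Gene by gene, 96 X-linked genes could be measured in females of both crosses and stages. The median share over them was 0.186 at 64C and 0.348 at 32C. In both crosses 48 were lower at 64C and 2 were higher, while 24.3% of 4679 autosomal genes were lower in both. Shares under 0.1 were found for 29 genes at 64C and 10 at 32C, and shares of at least 0.4 for 9 and 31. The test of single genes in these 4 groups (limma, X-linked and autosomal genes in 1 fit) called 0 of 4776 (0%), with 214 at an unadjusted p under 0.05. The 9 X-linked genes among these were all lower, with an adjusted p of 0.928.

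Several of the leading genes lay close together. Hdac6, a cytoplasmic deacetylase of tubulin, had a paternal share of 0.0176 in BC and 0 in CB females at 64C, against 0.518 and 0.639 at 32C. It lies at chrX:7930116-7948047 (GRCm38.p6), and the kinase gene Pim2 (0.00862 and 0.00694 against 0.575 and 0.333), Pqbp1, Tfe3, Praf2 and Gpkow lie within the same stretch, chrX:7697134-7948047. Tfe3, a transcription factor of lysosome genes, had 0.0241 and 0.179 against 0.408 and 0.465. Gpkow had 0 and 0 against 0.704 and 0.202. The stretch also holds Wdr45, Otud5 and Timm17b, which were lower in both crosses but outside the leading 10. Suv39h1, near 8.1 megabases, was 1 of the 2 X-linked genes higher in both crosses, at 0.544 and 0.475 against 0.373 and 0.373. Of the other 4 of the leading 10, Jade3 (0 and 0 against 0.481 and 0.241) and Cdk16 lie near 20.4 and 20.7 megabases, Pgrmc1 near 36.6 and the lysosomal sulfatase gene Ids near 70.3.

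By position, 13 of 16 genes in the first 10 megabases of the X were lower in both crosses, with medians of 0.127 at 64C and 0.428 at 32C. From 10 to 60 megabases it was 13 of 21 genes, with medians of 0.211 and 0.401, from 60 to 110 megabases 9 of 32, with 0.16 and 0.237, and beyond 110 megabases 12 of 26, with 0.22 and 0.343. The lowest 32C median thus belonged to the third stretch, which holds Xist. These windows were chosen after the values were seen and carry no test.

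On the autosomes, paternal shares of single genes did not pass at any of 3141 genes in the 8 groups (limma, 0 calls, 0%, 188 at an unadjusted p under 0.05, lowest adjusted p = 0.206). The gene with the lowest p, 1810032O08Rik, had paternal shares of 0.752, 1, 0.676 and 0.994 in the 64C groups, against 0.177, 0.33, 0.291 and 0.501 at 32C. Me1, cytosolic malic enzyme, had 0.436, 0.52, 0.338 and 0.287 against 0.634, 0.841, 0.641 and 0.708, and Coq5, an enzyme of coenzyme Q synthesis, 0.829, 0.73, 0.691 and 0.778 against 0.287, 0.181, 0.431 and 0.416. The other named genes were Cwf19l1 (lower), Nubp1 and Champ1 (both higher).

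Imprinted genes ranged from fully biased to mixed. Slc38a4, an amino acid transporter read from the paternal allele, had median shares per cell of 1 at both stages, in 17 and 24 measured cells, and stood at 65.4, 90.3, 126 and 132 against 40, 58.5, 86.7 and 85.6 CPM. Sfmbt2, a polycomb protein imprinted in the extraembryonic lineage, and Jade1 also had medians of 1 at both stages, in 11 and 17 and in 16 and 16 cells. Gab1, an adaptor of receptor kinases, had medians of 1 in 18 and 25 cells, with an average of 0.576 in the 2 CB males at 64C. Tssc4, listed as maternally expressed, had medians of 0.474 in 9 cells at 64C and 0.68 in 24 cells at 32C (limma, adjusted p = 0.794). H19, a maternally expressed noncoding RNA, had no read at 32C and 1412 reads at 64C, at least 650-fold higher (floor of 3 reads over the stage). A single 64C cell expressed it, with a paternal share of 0.00654. No member of the imprinted lists passed in level, and their median log2 changes were -0.362 over 17 paternally and -0.0553 over 13 maternally expressed genes.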

How the data were processed

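Wild-type cells of the 64-cell and 32-cell stages were grouped by the labelled stage, cross and sex. The authors deposited whole-number read counts per gene, the paternal allele's share of allelic reads as a fraction per gene, and a normalized signal per gene whose scaling is not given in the sources used here. TopHat2 2.1.0, SAMtools, HTSeq 0.6.1 and build mm10 are named in the submitters' processing notes, and whether counting used strand is not given, so overlapping genes cannot be told apart. Some columns matched no sample and were not used here, 7 of counts and 67 each of fractions and of signal.

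Counts were summed per stage, cross and sex and tested with edgeR 4.0.16 (TMM, filterByExpr, terms for cross, sex and stage), with DESeq2 1.42.0 as an alternative, in R 4.3.3. Shares of cells with at least 10 CPM (genes with at least 3 expressing and 3 other cells) were tested with limma 3.58.1. So were paternal shares (at least 10 reads in a cell, at least 2 cells of each group). That cut of 10 counts all reads of a gene, not its allelic reads. P-values were adjusted by Benjamini-Hochberg over all genes of a fit, threshold 0.05. The pseudocount of log2(CPM + 1) is 1. Intervals and floors of 3 counts cover counting error only, since the reads carry no molecular identifiers. Scripts were tested on simulated data. The deposited counts and fractions were compared before use, and no replicate pair was identical.

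Named genes are, by rule, the 12 of lowest p in each direction in level that moved that way in 4 of 4 pairs, filled with genes that did not pass, the 10 largest differences in share each way in 4 of 4 pairs, and the 10 X-linked and 6 autosomal genes of lowest p in paternal share. Other genes belong to fixed lists or were named after their values were seen. Members and lists were chosen with earlier results of these data known. Lineage classes were set after the data were seen. Values of a few genes in these lists are not reported here.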

Additional observations from a re-analysis of the deposited data

Results flagged for a closer look

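Of 65 groups of 4 to 10 values tested for a value far from the others (Dixon's test, which flags about 1 in 20 groups by chance), 6 held one. At 64C, Pdxk in BC males, at 7.42 on the log2(CPM + 1) scale, lay above the other sums, which ran from 6.44 to 6.59. At 32C, CB males were low for Pemt, at 8.34 against 10 to 10.3, and high for Rnd1, at 7.05 against 4.91 to 5. Txnip at 0.0357 in 32C BC females was the only 32C sum above 0, on a single read. Among 64C CB females, cell 51 held 533 CPM of Xist, and the others at most 74.9 CPM. Among 32C BC females, cell 28 had 9613 genes detected after thinning, against 8116 to 8499 in the others.

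For 3 of 26 gene lists the stage difference ran in opposite directions in every pair of 2 classes of cells. Lists were looked at by cross and by sex, some values lie near 0, and the difference between the classes was not tested. The trophectoderm epithelium list had median log2(CPM + 1) differences of 0.76 and 0.92 in BC females and males and of -0.02 and -2.01 in CB females and males. The medians of the p53 and stress list were -0.44 (BC females) and -0.36 (BC males), against 0.71 (CB females) and 0.76 (CB males). The Hippo list had 0.02 and 0.11 in females and -0.10 and -0.28 in males. At 64C, 9 of 12 BC cells and 2 of 8 CB cells were trophectoderm-like, against 7 of 11 and 9 of 15 at 32C, and the part of this makeup was not tested.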

How the results depend on the processing

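Calls in level numbered 3 in the reported fit, 3 without a filter on low counts, 1 with stage as the only term, 21 with all wild-type sums in 1 fit (Tnfsf13b among them, Dkk1 and Txnip not), 5 with the 4 pairs of cross and sex as a block, 0 with limma on cell means, 885 with DESeq2 and 0 to 6 with a sum left out. Calls in share numbered 40, 69 with 1 CPM as the mark, 37 with 100 CPM, 121 with that block, 25 without the 3 doubted cells, 25 without the 5 cells and 0 to 114 with a group left out. DESeq2 gave 151 calls of the stage by sex term. Taken as the median over X-linked genes, the paternal share differed by -0.15 in BC and -0.308 in CB. The X-linked less autosomal difference was 0.1164, -0.3855, 0.01179 and -0.4898 (BC females, CB females, BC males, CB males) above 100 CPM, and -0.06121 in BC females and -0.366 in CB males on the authors' normalized signal. The logit difference of Mtfmt was -0.056 with 1 CPM as the mark. The cause of these shifts was not tested. With a sum left out, 281 of 352 values of named genes were on the same side of the threshold, 67 lost and 4 gained a call, and 0 changed sign. Most of the 281 belong to genes that were not called in the reported fit and stayed uncalled. For the called genes, more calls were lost than kept. The allelic results without calls had 0 calls under every alternative run. Autosomal shares with at least 3 cells per group were not run, as 64C CB males have 2 cells. No paired analysis was possible because the labels tie no cell to an embryo or animal. Some titles of 32C CB females share a number, as 2A and 2B do, and what it names is not given. The block on cross and sex, chosen after seeing the data, is therefore not a pairing of animals. The 2-cell sum of 64C CB males and the unnamed embryos limit what the tests can show.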
